A study of Mus musculus with 7 samples.

Results

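Single-cell RNA-seq libraries of 5 individually run FVB/NJ mice were compared, 2 from the aging arm of a mouse seminal vesicle atlas against 3 from its diet arm. The aging libraries were young (3 months) and old (18 months). The diet libraries were control, high fat and low protein, from mice of 3 months fed for 9 weeks. All 5 mice were wild-type males of 1 strain, each library came from 1 mouse, and the tissue label of all was seminal vesicle. The atlas held 23 mice in 7 libraries, the other 18 mice having been tagged and pooled. Library names place young and old in run 1 and the diet mice in run 2. Run, study arm and the tissue that was collected therefore cannot be told apart here, and neither age nor diet had a replicate.

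Cells with at least 500 genes and at most 10% of their UMIs (unique molecular identifiers, each counting 1 captured RNA molecule) on mitochondrial genes were used, if Svs2, Svs4, Svs5 and Svs6 together held under 30% of their UMIs. Of the cells that passed the first filters, the Svs limit removed 0% in young and old. It removed 66.5% in control, 69.3% in high fat and 82.2% in low protein, so it acted on the diet libraries only. Of 30016 cells that passed the first filters in the 5 mice, 21524 were under the Svs limit. Every such cell with a UMI of Pecam1 (endothelial adhesion molecule), of Ptprc (CD45, on white blood cells) or of the type I collagen genes Col1a1 or Col1a2 entered a cell set. The sets held 1696, 398 and 6286 cells. UMIs of a set were summed per mouse, so that the mouse was the replicate.

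The seminal vesicle and the epididymis arise from neighbouring stretches of the Wolffian duct. The vesicle's secretory epithelium releases the Svs proteins that form the copulatory plug, and the epididymal epithelium secretes lipocalins, cystatins and the glutathione peroxidase Gpx5 into the fluid that bathes sperm. Stromal cells of ducts along the body axis keep a region-specific code of Hox transcription factors, with the genes at the 5′ end of each cluster used furthest towards the tail. Endothelial and immune cells take on features of the organ they reside in.

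The label of the tissue was checked on all cells outside the 3 sets, those over the Svs limit included. There the seminal vesicle secretion list (12 genes) held, of all UMIs, 0.101% in young and 0.0788% in old, against 75.7% in control, 75.8% in high fat and 76.7% in low protein. The epididymis list (18 genes) held 6.71% in young and 10.8% in old, against 0.00545% in control, 0.00550% in high fat and 0.00542% in low protein. The defining products of the labelled tissue were thus nearly absent from young and old, whose other cells held epididymal products. These products were also read in the sets. In Pecam1-positive cells the epididymis list took, of all UMIs, 1.24% in young and 3.19% in old, against 0.0410% in control, 0.0356% in high fat and 0.0951% in low protein. In collagen-positive cells it took 1.91% in young and 4.18% in old, against 0.0126% in control, 0.0205% in high fat and 0.0252% in low protein, and in Ptprc-positive cells it lay between 1.75% and 4.10% in the aging libraries and between 0.0139% and 0.0292% in the diet libraries. The seminal vesicle list ran the other way, from 0.0212% to 0.0516% over the 3 sets in young and old and from 2.85% to 4.67% in the diet libraries. With no Svs limit it ran from 37.0% to 57.1% over the sets in the diet libraries. The prostate list (6 genes) held 0 UMIs in both aging libraries in the Pecam1 and Ptprc sets and 2 UMIs in the collagen set, against at most 0.387% in a diet library. The groups did not overlap in any of these 9 comparisons. These shares are a description with no test, since Svs UMIs entered the choice of cells. Genes of these lists are therefore given by these sums only, and what RNA of other cells adds to the sets was not tested. In exclusive cells, those with no Epcam UMI (an epithelial adhesion molecule) and no UMI of the other markers, the epididymis list in young and old shrank to between 0.177% and 0.671%. The seminal vesicle list in the diet libraries did not shrink alike, with 2.22% to 4.81% in exclusive cells over the 3 sets.

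**Figure D1:**
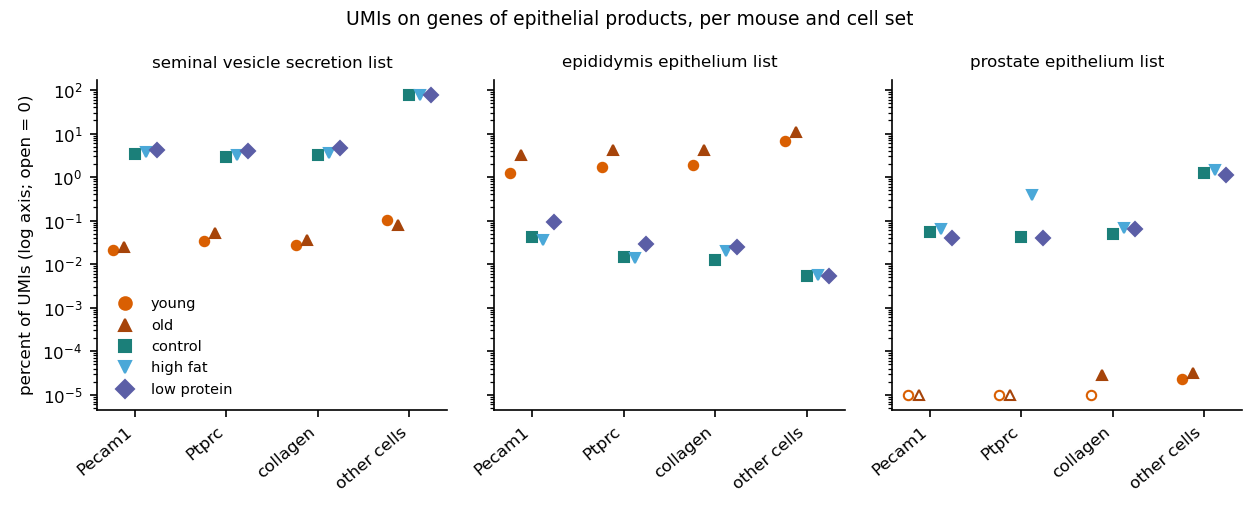
Percent of all UMIs (log axis, open symbols are 0 UMIs) on the seminal vesicle, epididymis and prostate lists for each mouse in the 3 cell sets and in the cells of the same mouse outside the sets. Young and old lie below the diet libraries on the seminal vesicle and prostate lists and above them on the epididymis list in every set.

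Depth was uneven. The Pecam1 set held 990 cells in young and 488 in old, against 96, 73 and 49 in control, high fat and low protein. The Ptprc set held 194 and 89 against 53, 39 and 23 cells, and the collagen set 2435 and 2766 against 529, 389 and 167. The summed UMIs of a set ran from 34288 (low protein, Ptprc) to 7142701 (old, collagen). A count of 0 over the 3 diet libraries together allowed up to 10.2 CPM (counts per 1000000, here UMIs of a gene over all UMIs of the set) in Pecam1-positive, 16.7 CPM in Ptprc-positive and 2.38 CPM in collagen-positive cells, at a floor of 3 counts, and these limits cover counting error only. Epcam UMIs were found in 34.7% of the Pecam1-positive cells of low protein and in 3.21% to 20.2% of the cells of every other set and mouse. In the collagen set they were in 11.6% and 19.3% of the cells of young and old, against 3.21%, 3.34% and 6.59% in control, high fat and low protein. Doublets were not removed. Of the barcodes, 3 to 20 were shared by any 2 libraries, at most 0.380% of the smaller one. In sums over a marker-defined set, fewer cells of a type and less RNA per cell cannot be told apart.

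The first question was which genes of collagen-positive stromal cells differed between young and old and the diet libraries. Of 7550 genes tested, 1146 (15.2%) were higher and 917 (12.1%) lower in young and old at an adjusted p under 0.05 (edgeR quasi-likelihood test, Benjamini-Hochberg). These counts include genes of the secretion lists, and with those left out 1141 of 7515 were higher and 920 lower. Without the control library 1029 were called. The median log2 fold change over all genes tested was 0.01. Values in brackets after a gene are its log2 fold change, young and old over the diet libraries, ± SE, with the adjusted p of this test. Smooth muscle genes moved with the groups throughout. A UMI of Myh11, Actg2, Cnn1 or Des was present in 72.9% and 83.7% of the collagen-positive cells of young and old, against 21.7%, 22.9% and 30.5% in control, high fat and low protein. The comparison was therefore repeated on cells without such UMIs, a choice made once the data were known, and 884 genes were then higher and 687 lower of 6384, with 1189 of the calls shared. In what follows a value from these cells is given where it bears on a named gene.

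Hox genes split by their place in the clusters. Of 19 Hox genes tested in the collagen set, 2, 4, 3 and 2 of the Hoxa, Hoxb, Hoxc and Hoxd clusters were higher in young and old, and 4 were lower, Hoxa11, Hoxa13, Hoxd11 and Hoxd13, which stand towards the 5′ end of their clusters. The shares over all genes tested in this set were 15.2% higher and 12.1% lower. Hoxc8 (chr15:102990607-102994111, mm10), which patterns thoracic segments, had 785 UMIs in young and 2705 in old, against 0 in each diet library, which was 162 CPM in young and 379 in old, against 0 in each diet library. It was at least 122-fold higher in young and old, with the diet libraries' 0 UMIs set at a floor of 3 counts over the group (adjusted p = 0.000119), and passed without smooth muscle UMIs too (9.34 on the log2 scale, adjusted p = 8.31e-06). In the cells outside the sets Hoxc8 reached only 22.8 and 24.6 CPM in young and old, and in exclusive cells its level was higher than in the whole set, with 213 and 595 CPM. Hoxc6 had 25.4 CPM in young and 36.4 in old, against 0 in each diet library, and was at least 13.4-fold higher (adjusted p = 0.0008). Hoxc9 was at least 9.55-fold higher (adjusted p = 0.000999) and Hoxa5 at least 11.8-fold higher (adjusted p = 0.00124), again from 0 UMIs in each diet library. All 3 Hoxc genes tested were read in stromal cells of the aging libraries and in no diet library. With 0 UMIs in the diet libraries, they and Hoxa5 passed the filter on low counts through young and old only. The other Hoxc genes of the list were not tested.

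The opposite held at the 5′ end of the Hoxa and Hoxd clusters. Hoxd13 (chr2:74668310-74671599, mm10), the last gene of its cluster and active in digits and in the urogenital sinus, had 2 UMIs in young and 0 in old, against 43 in control, 28 in high fat and 11 in low protein, which was 0.413 CPM in young and 0 in old, against 66.9 in control, 64.6 in high fat and 60.3 in low protein. It was 391-fold lower in young and old (95% counting interval 105 to 3279, adjusted p = 3.63e-06). Hoxa13 (chr6:52257694-52260880, mm10), its paralogue in the Hoxa cluster, had 0.413 CPM in young and 0 in old, against 40.4 in control, 46.1 in high fat and 60.3 in low protein, and was 271-fold lower (95% counting interval 71.8 to 2296, adjusted p = 1.8e-05). Every diet library lay above both aging libraries for each gene. Both are among the largest falls of this set, and the rule for those required this. Hoxd11 had 9.69 CPM in young and 1.68 in old, against 17.1 in control, 36.9 in high fat and 21.9 in low protein (-2.25 ± 0.74, adjusted p = 0.0465) and Hoxa11 7.22 CPM in young and 3.5 in old, against 17.1 in control, 13.8 in high fat and 16.5 in low protein (-1.62 ± 0.53, adjusted p = 0.0444). Both were near the threshold. For Hoxd11 the call was lost in 9 of 14 alternatives, among them without old, control, high fat and low protein (adjusted p from 0.0527 to 0.213), and for Hoxa11 the call was lost in 6 of 10 alternatives, among them without control, high fat and low protein (adjusted p from 0.0506 to 0.204). Hoxa10 and Hoxa9, which lie between the 2 ends, did not pass, with -0.33 ± 0.41 and 0.44 ± 0.38 on the log2 scale.

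A further set of Hox genes was higher in the collagen set of young and old but was, apart from Hoxa7, read at higher levels in the other cells of these mice. Hoxd8 had 29.5 CPM in young and 54.7 in old, against 0 in control, 2.31 in high fat and 0 in low protein, and was 56.1-fold higher (95% counting interval 10.0 to 2218, adjusted p = 0.000646). Hoxd9 had 34.2 CPM in young and 30.8 in old, against 3.11 in control, 4.61 in high fat and 5.48 in low protein (2.99 ± 0.42, adjusted p = 0.000577). Young and old lay above every diet library for both genes. Hoxa7 had 37.1 CPM in young and 47.2 in old, against 4.67 in control, 0 in high fat and 0 in low protein, and was 18.1-fold higher (95% counting interval 6.16 to 88.0, adjusted p = 0.00054). Hoxb6 (3.48 ± 0.49, adjusted p = 0.000588), Hoxb7 (2.86 ± 0.54, adjusted p = 0.00321), Hoxb8 (3.02 ± 0.49, adjusted p = 0.00128) and Hoxb9 (1.79 ± 0.40, adjusted p = 0.00812) were higher as well. In the cells outside the sets Hoxb6, Hoxb7, Hoxb8, Hoxb9, Hoxd8 and Hoxd9 stood between 43.4 and 186 CPM in young and old and between 9.35 and 19.0 CPM in the diet libraries. These 2 ranges are not on 1 scale. Cells over the Svs limit are included, and the seminal vesicle list held 75.7% to 76.7% of the UMIs in the diet libraries. That lowers the CPM of every other gene there. In exclusive collagen-positive cells Hoxb6 came to 11.7 CPM in young and 14.3 in old, against 3.41 in control, 4.94 in high fat and 6.23 in low protein, and Hoxb8 to 7.2 CPM in young and 10.7 in old, against 6.83 in control, 0 in high fat and 12.5 in low protein. The groups no longer separated for Hoxb8 there, where the 4 Hoxb genes were too low to be tested, while Hoxd8 still passed (4.50 on the log2 scale, adjusted p = 0.00146). For Hoxb7 the call was lost without control (adjusted p = 0.0562). For Hoxb9 the call was lost with no limit on Svs UMIs (adjusted p = 0.416) and without control (adjusted p = 0.113).

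**Figure D2:**
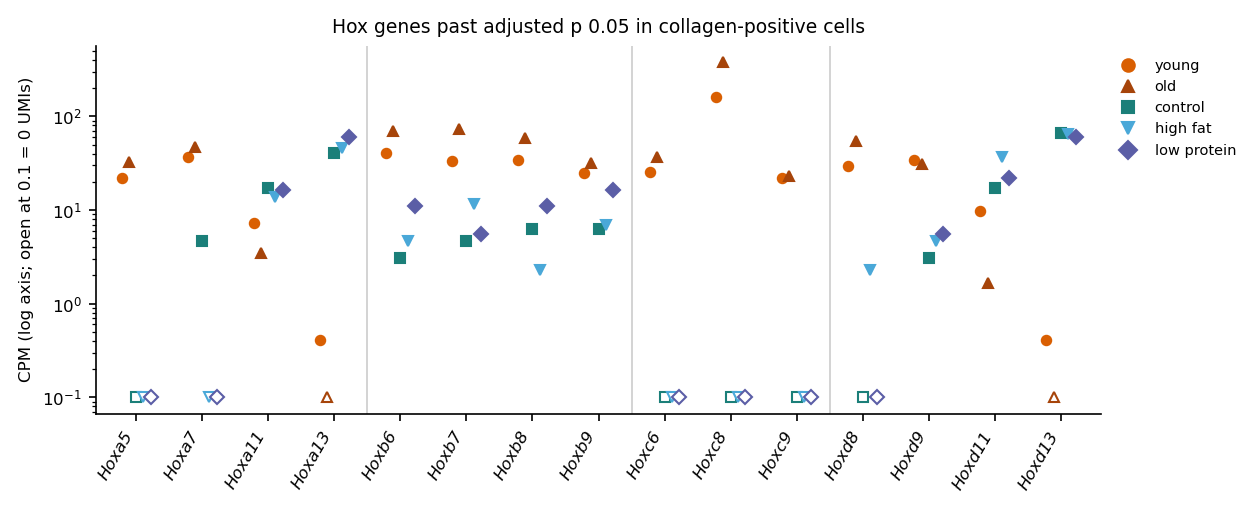
CPM (log axis, open symbols at 0.1 are 0 UMIs) of the 15 Hox genes past an adjusted p of 0.05 in collagen-positive cells, 1 symbol per mouse, ordered by cluster and by number within a cluster. The 3 Hoxc genes and Hoxa5 are at 0 in the 3 diet libraries, and Hoxa13 and Hoxd13 lie above 40 CPM there and under 1 CPM in young and old.

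The pooled mice of the atlas, which entered no test and were counted with another version of the same software and another gene reference, give levels for further mice labelled as seminal vesicle. By the study's description the aging pool mixes young and aged mice, some of the aged ones treated with rapamycin, and the diet pool mixes control, calorie-restricted, high fat and low protein mice, so each level is a mean over unlike mice. In collagen-positive cells of the 8 FVB/NJ mice of the diet pool (2093 cells, 6733448 UMIs), Hoxd13 stood at 69.4 CPM and Hoxa13 at 39.9 CPM, each with UMIs in all 8 mice. Hoxc8 and Hoxc6 had 2 UMIs each there, which was 0.297 CPM. In the 10 C57BL/6J mice of the aging pool, Hoxd13 stood at 39.8 CPM, Hoxa13 at 26.9 CPM and Hoxc8 at 0.357 CPM. On these genes both pools therefore held levels like those of the diet libraries, not like those of young and old.

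Other regional transcription factors also split the groups. Of 15 tested, 4 were higher and 4 lower in young and old, with the larger changes among those that were lower. Over all genes tested in the collagen set, 15.2% were higher and 12.1% lower. Isl1, a LIM homeodomain factor of the genital and hindlimb mesenchyme, had 0 UMIs in young and 1 in old, against 254 in control, 181 in high fat and 47 in low protein. Its level was 0 CPM in young and 0.140 in old, against 395 in control, 418 in high fat and 258 in low protein, 4591-fold lower in young and old (95% counting interval 820.2 to 181721, adjusted p = 1.74e-07). Isl1 was at 165 CPM in the diet pool and 192 CPM in the aging pool. Nr2f1, an orphan nuclear receptor, had 18.4 CPM in young and 19.0 in old, against 224 in control, 224 in high fat and 154 in low protein (-3.48 ± 0.24, adjusted p = 6.22e-06). Hand2 (-3.13 ± 0.31, adjusted p = 7.31e-05) and Wt1, a factor of the urogenital ridge (-2.72 ± 0.35, adjusted p = 0.000331), were lower too. For Hand2 the call was lost in cells with at least 3 marker UMIs (adjusted p = 0.0824), and for Wt1 the call was lost in cells of at least 1000 genes (adjusted p = 0.0562).

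The 8 genes with the largest rise that were at least 2 times as high in the set as in the mouse's other cells were each at 0 UMIs in the diet libraries. Besides Hoxc8 these were Car14, Pcsk1n, Cldn11, Casq2, Bhlhe22, Aard and Myom1. Car14, a membrane-bound carbonic anhydrase, had 81.3 CPM in young and 122 in old, against 0 in each diet library, at least 44.2-fold higher (adjusted p = 8.31e-05). Cldn11, a claudin of tight junctions in myelin and Sertoli cells, had 59.0 CPM in young and 83.3 in old, against 0 in each diet library, at least 30.8-fold higher (adjusted p = 0.000119). Car14, Cldn11 and Pcsk1n, an inhibitor of a prohormone convertase, passed without smooth muscle UMIs as well. Casq2, the calcium store protein of cardiac and smooth muscle, was at least 28.5-fold higher (adjusted p = 8.18e-05), and Myom1, a sarcomere protein, at least 13.0-fold (adjusted p = 0.000528). In the diet pool Myom1 reached 17.5 CPM and Pcsk1n 22.1 CPM, while Cldn11 was at 1.63 CPM and Bhlhe22, a neural basic helix-loop-helix factor, at 2.67 CPM. The aging pool held 3.39 CPM of Myom1, 19.8 CPM of Pcsk1n, 0.178 CPM of Cldn11 and 3.21 CPM of Bhlhe22.

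Besides Isl1, Hoxd13 and Hoxa13, the genes with the largest fall were Sphkap, Il18rap, Slc6a2, Calb2 and Gm48898. Slc6a2, the noradrenaline transporter, had 0.413 CPM in young and 0.140 in old, against 37.3 in control, 46.1 in high fat and 32.9 in low protein, 159-fold lower in young and old (95% counting interval 51.3 to 796, adjusted p = 1.59e-05). Calb2, the calcium-binding calretinin, had 0.413 CPM in young and 0 in old, against 18.7 in control, 23.1 in high fat and 43.9 in low protein, 143-fold lower (95% counting interval 36.3 to 1234, adjusted p = 0.000283). Sphkap, an anchor of protein kinase A, was 343-fold lower (95% counting interval 57.7 to 13916, adjusted p = 7.73e-05) and Il18rap, a subunit of the interleukin 18 receptor, 229-fold lower (95% counting interval 59.9 to 1942, adjusted p = 3.95e-05). The unnamed transcript Gm48898 had 2.68 CPM in young and 0.840 in old, against 176 in control, 155 in high fat and 132 in low protein (-6.58 ± 0.40, adjusted p = 2.51e-06). All 5 passed without smooth muscle UMIs.

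Marker lists of several cell types differed between the groups in the collagen set, where 15.2% of all genes tested were higher and 12.1% lower. Of 19 fibroblast genes tested, 2 were higher and 13 lower in young and old, with a median log2 fold change of -1.28. Of 13 smooth muscle genes, 12 were higher and none lower, with a median of 2.47. The smooth muscle list took, of all UMIs, 1.5% in young and 1.5% in old, against 0.216% in control, 0.187% in high fat and 0.622% in low protein. In the cells outside the sets this list took 0.320% in young and 0.245% in old, and at most 0.00349% in a diet library. Svs UMIs of cells over the Svs limit lower that last share. Whether cell numbers or RNA of other cells made the difference was not tested. Rorb, a nuclear receptor, had 10.5 CPM in young and 1.96 in old, against 561 in control, 558 in high fat and 483 in low protein (-6.52 ± 0.55, adjusted p = 2.55e-05), and remained lower without smooth muscle UMIs (-6.09, adjusted p = 3.05e-08). Angptl7, an angiopoietin-like protein, had 40.0 CPM in young and 27.0 in old, against 227 in control, 1029 in high fat and 718 in low protein (-4.31 ± 0.57, adjusted p = 0.000418). Gsn, the actin-severing gelsolin, had 1053 CPM in young and 754 in old, against 8842 in control, 10627 in high fat and 7574 in low protein (-3.34 ± 0.25, adjusted p = 1.37e-05). For Gsn the call was lost in cells of at least 1000 genes (adjusted p = 0.066). Among smooth muscle genes Tnnt2, the cardiac troponin T gene, had 131 CPM in young and 214 in old, against 1.56 in control, 2.31 in high fat and 0 in low protein, and was 114-fold higher (95% counting interval 31.4 to 939, adjusted p = 1.21e-05). Myocd, the coactivator that drives smooth muscle genes, had 50.7 CPM in young and 42.1 in old, against 3.11 in control, 2.31 in high fat and 0 in low protein, and was 19.1-fold higher (95% counting interval 6.52 to 93.1, adjusted p = 0.000143). In the diet pool Tnnt2 stood at 116 CPM, nearer to young and old, and the smooth muscle myosin gene Myh11 at 803 CPM, between the groups. In the aging pool they stood at 9.28 CPM and 183 CPM, both nearer to the diet libraries. Of the epithelial genes 9 of 11 were higher, among them Cldn7 (4.89 ± 0.46, adjusted p = 5.07e-05) and Cldn3 (3.31 ± 0.40, adjusted p = 0.000226), and with no limit on Svs UMIs Cldn3 turned to -0.75 (adjusted p = 0.0468) and Krt8 to -0.00679 (adjusted p = 0.99). For Cldn4 and Krt8 the calls were lost in exclusive cells (adjusted p = 0.416 and 0.327).

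In the Wnt, growth factor and BMP lists more genes were lower than higher in young and old. Over all genes tested in the collagen set, 12.1% were lower and 15.2% higher. In the Wnt list 7 of 14 tested were lower and 1 higher (median -0.57). Wif1, a secreted Wnt inhibitor, had 71.8 CPM in young and 15.3 in old, against 1605 in control, 777 in high fat and 1393 in low protein (-4.87 ± 0.62, adjusted p = 0.000306). The ligands Wnt10a (-4.82 ± 0.28, adjusted p = 1.96e-06) and Wnt2 (-4.16 ± 0.27, adjusted p = 4.19e-06) and the antagonist Sfrp4 (-4.17 ± 0.82, adjusted p = 0.00389) were lower as well. Wnt2 had 14.2 CPM in young and 11.5 in old, against 266 in control, 226 in high fat and 165 in low protein, with no overlap. Of 14 growth factor genes 9 were lower and 2 higher (median -1.32). Igf1, an insulin-like growth factor, had 250.4 CPM in young and 162 in old, against 2219.5 in control, 1829 in high fat and 1930.4 in low protein (-3.29 ± 0.24, adjusted p = 1.22e-05). Ptn, or pleiotrophin (-3.03 ± 0.33, adjusted p = 0.000117), Hgf, the ligand of Met (-2.82 ± 0.30, adjusted p = 0.000101), and Fgf2 (-2.49 ± 0.25, adjusted p = 7.2e-05) followed. In the TGF beta and BMP list 5 of 15 were lower and 2 higher. Bmp7 had 11.3 CPM in young and 8.12 in old, against 110.4 in control, 53.1 in high fat and 60.3 in low protein (-3.05 ± 0.34, adjusted p = 0.000135), and the related Gdf10 was lower (-2.61 ± 0.21, adjusted p = 2.28e-05), while the BMP antagonist Chrdl1 was higher (2.36 ± 0.26, adjusted p = 0.000114). For Ptn the call was lost in cells of at least 1000 genes (adjusted p = 0.082).

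Retinoid and steroid genes moved in both directions. Of 12 Hedgehog and retinoid genes tested, 4 were higher and 1 lower. Over all genes tested in the collagen set, 15.2% were higher and 12.1% lower. Stra6, the cell surface receptor that takes up retinol, had 2.48 CPM in young and 3.64 in old, against 137 in control, 94.6 in high fat and 104 in low protein (-5.19 ± 0.30, adjusted p = 1.68e-06). Aldh1a2, which makes retinoic acid, had 96.9 CPM in young and 95.3 in old, against 9.33 in control, 11.5 in high fat and 11.0 in low protein (3.19 ± 0.28, adjusted p = 3.78e-05), and Rbp4, the retinol carrier, was higher (2.72 ± 0.30, adjusted p = 0.000113). Hhip, a Hedgehog-binding protein, was higher (1.85 ± 0.27, adjusted p = 0.000747), but the call was lost in cells of at least 1000 genes (adjusted p = 0.247) and without smooth muscle UMIs (adjusted p = 0.525). Of 9 steroid genes 3 were higher and 3 lower. Srd5a2, which turns testosterone into dihydrotestosterone, had 3.51 CPM in young and 7.0 in old, against 87.1 in control, 32.3 in high fat and 43.9 in low protein (-3.45 ± 0.44, adjusted p = 0.000306). The glucocorticoid-induced Tsc22d3 was lower (-1.78 ± 0.19, adjusted p = 0.000117). The estrogen receptor gene Esr1 had 37.7 CPM in young and 32.6 in old, against 17.1 in control, 13.8 in high fat and 16.5 in low protein (1.12 ± 0.30, adjusted p = 0.0181), and the call was lost in 5 of 14 alternatives, among them without control, high fat and low protein (adjusted p from 0.055 to 0.112).

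Several chemokine genes of the collagen set differed between the groups. Of 16 cytokines and chemokines tested, 5 were lower and 3 higher. The monocyte attractants Ccl2, with 399 CPM in young and 242 in old, against 3910.2 in control, 3693 in high fat and 3312 in low protein (-3.52 ± 0.26, adjusted p = 1.22e-05), and Ccl7 (-3.97 ± 0.50, adjusted p = 0.000303) and the neutrophil attractant Cxcl1 (-2.19 ± 0.23, adjusted p = 0.000102) were lower. Cxcl10, an interferon-induced attractant of T cells, was higher, with 1225 CPM in young and 672 in old, against 379.5 in control, 309 in high fat and 208 in low protein (1.61 ± 0.29, adjusted p = 0.00262). Of 26 matrix genes 8 were higher and 7 lower, with Npnt, an integrin ligand (3.66 ± 0.31, adjusted p = 3.02e-05), Col11a1 (3.22 ± 0.41, adjusted p = 0.000306) and Lama5 (2.24 ± 0.52, adjusted p = 0.00986) higher and Col5a3 lower (-2.55 ± 0.26, adjusted p = 7.25e-05). For Lama5 the call was lost without control (adjusted p = 0.134). Pericyte genes gave 2 higher and 1 lower of 8. Of 10 pan-endothelial genes 4 were higher and 1 lower, and the list took, of all UMIs, 0.0417% in young and 0.0248% in old, against 0.0232% in control, 0.0164% in high fat and 0.0395% in low protein. Of 12 interferon genes 2 were higher and 2 lower. Beside these lists, 15.2% of all genes tested in the collagen set were higher and 12.1% lower. The interferon counts lie near those shares.

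**Figure D3:**
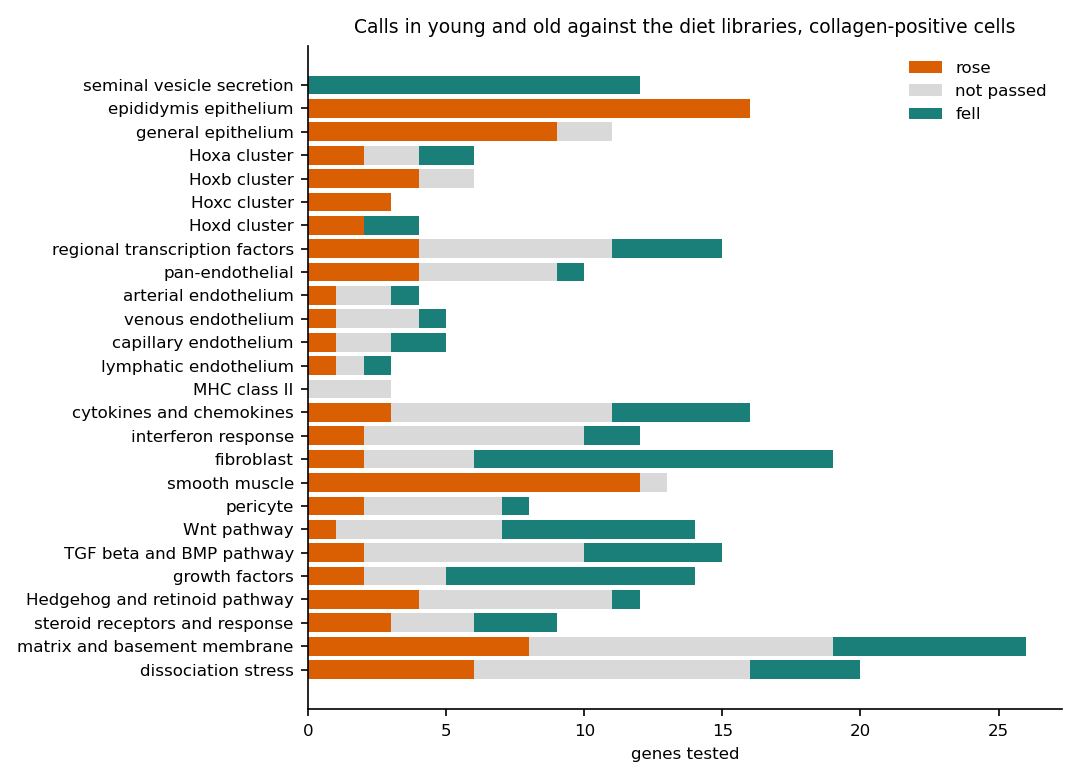
Number of genes tested in each list with at least 3 genes tested in collagen-positive cells, split into genes higher in young and old, not past an adjusted p of 0.05, and lower in young and old. Smooth muscle genes are higher, and most fibroblast and growth factor genes are lower. Bars of the secretion lists are a description only, since Svs UMIs entered the choice of cells.

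In Pecam1-positive cells, 151 of 2644 genes tested (5.71%) were higher and 153 (5.79%) lower in young and old. Genes of the secretion lists are among these, and with them left out 157 of 2613 were higher and 147 lower. Without control 160 were called, and without high fat 159. Markers of other cell types moved with the groups here too, and their part in the results below was not tested. The smooth muscle list took, of all UMIs, 0.109% in young and 0.106% in old, against 0.0186% in control, 0.0218% in high fat and 0.0364% in low protein, and 3 of its 4 genes tested were higher, Acta2 (3.26 ± 0.62, adjusted p = 0.00635), Tagln (2.22 ± 0.35, adjusted p = 0.00202) and Myh11 (2.53 ± 0.56, adjusted p = 0.0157). In exclusive cells the list took 0.0675% in young and 0.0356% in old, against 0.0196% in control, 0.0220% in high fat and 0.0496% in low protein, so that the groups overlapped. For Acta2 the call was lost in exclusive cells (adjusted p = 0.159) and without control (adjusted p = 0.0698), and for Myh11 the call was lost without control (adjusted p = 0.16) and without low protein (adjusted p = 0.06). Of 7 fibroblast genes Col1a1 was higher (1.79 ± 0.41, adjusted p = 0.0175) and 2 were lower, among them Gsn (-2.35 ± 0.36, adjusted p = 0.00163). The pericyte gene Rgs5 was lower (-1.82 ± 0.24, adjusted p = 0.000597), and of 9 epithelial genes only Krt14 (-1.62 ± 0.33, adjusted p = 0.00942) and Krt5 (-1.85 ± 0.48, adjusted p = 0.0296) were called, both lower. For Col1a1 the call was lost without old (adjusted p = 0.0691), without high fat (adjusted p = 0.121) and without low protein (adjusted p = 0.0832), and for Krt5 the call was lost in 5 of 13 alternatives, among them without high fat and low protein (adjusted p from 0.0545 to 0.193). The pan-endothelial list took, of all UMIs, 0.85% in young and 0.774% in old, against 1.13% in control, 1.03% in high fat and 0.730% in low protein, and 12 of its 14 genes tested did not pass, among them Cdh5, Kdr, Tek and Flt1. Cldn5, the claudin that seals endothelial junctions, was higher, with 766 CPM in young and 682 in old, against 216 in control, 80.4 in high fat and 196 in low protein (2.18 ± 0.33, adjusted p = 0.00152). Plvap, the diaphragm protein of fenestrated capillaries, was lower, with 514 CPM in young and 578 in old, against 1461 in control, 1389.9 in high fat and 839 in low protein (-1.11 ± 0.25, adjusted p = 0.0165). For Plvap the call was lost in 4 of 15 alternatives, among them without control and high fat (adjusted p from 0.0554 to 0.359). In the diet pool Plvap stood at 598 CPM, nearer to young and old, and Cldn5 at 282 CPM, nearer to the diet libraries. In the aging pool Plvap stood at 347 CPM, below every single library, and Cldn5 at 628 CPM, nearer to young and old. The pools thus did not side with 1 group on these 2 genes.

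Several genes of capillary and venous cells were lower in the aging libraries' Pecam1 set. Of 6 capillary genes tested 4 were lower and none higher, with a median log2 fold change of -1.86 beside 0.00 over all genes tested. Of all genes tested in this set, 5.71% were higher and 5.79% lower. Fabp4, a fatty acid carrier, had 123 CPM in young and 68.6 in old, against 924 in control, 1585 in high fat and 238 in low protein (-3.18 ± 0.58, adjusted p = 0.00473). The water channel gene Aqp1 had 333 CPM in young and 303 in old, against 2177 in control, 1631 in high fat and 1273 in low protein (-2.35 ± 0.25, adjusted p = 0.000113). Gpihbp1, which holds lipoprotein lipase at the capillary wall (-1.70 ± 0.25, adjusted p = 0.00149), and Fabp5 (-2.03 ± 0.56, adjusted p = 0.04) were lower. Fabp5 had 18.5 CPM in young and 14.4 in old, against 74.6 in control, 45.9 in high fat and 97.9 in low protein. Outside the sets it stood higher in every mouse, at 41.4, 45.1, 133, 137 and 113 CPM in the same order. What RNA of other cells adds to Fabp5 here was not tested. Of 7 venous genes 3 were lower. Ackr1, a chemokine-binding protein of venules, had 47.7 CPM in young and 59.0 in old, against 447 in control, 609 in high fat and 126 in low protein (-2.85 ± 0.44, adjusted p = 0.00172). The adhesion molecules Vcam1 (-2.48 ± 0.35, adjusted p = 0.00101) and Sele (-1.16 ± 0.31, adjusted p = 0.0335) were lower. In the diet pool Ackr1 stood at 18.3 CPM and Vcam1 at 96.9 CPM, nearer to young and old, whereas Fabp4 was at 1679 CPM and Aqp1 at 1003 CPM, nearer to the diet libraries. The aging pool held 22.0 CPM of Ackr1, 122 CPM of Vcam1, 3681 CPM of Fabp4 and 640.4 CPM of Aqp1, the last between the groups. For Ackr1 and Gpihbp1 the calls were lost in cells of at least 1000 genes (adjusted p = 0.122 and 0.0671). For Fabp5 the call was lost in 4 of 11 alternatives, among them without young, old, control and low protein (adjusted p from 0.0926 to 0.593), and for Sele the call was lost in 7 of 13 alternatives, among them without old, control, high fat and low protein (adjusted p from 0.0696 to 0.237).

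Another group of genes was higher in the Pecam1 set of young and old. Spock2, a matrix proteoglycan, had 575 CPM in young and 473 in old, against 29.8 in control, 0 in high fat and 28.0 in low protein (4.75 ± 0.47, adjusted p = 7.05e-05). Slc39a8, a zinc and manganese importer, had 291 UMIs in young and 223 in old, against 1 in control, 0 in high fat and 0 in low protein, and was 39.8-fold higher (95% counting interval 7.10 to 1573, adjusted p = 0.000426). Mfsd2a, a lipid transporter of the blood-brain barrier, had 242 UMIs in young and 130 in old, against 1 in control, 0 in high fat and 0 in low protein, and was 28.8-fold higher (95% counting interval 5.13 to 1139, adjusted p = 0.00149). Both aging libraries lay above all diet libraries for each of these genes, which the rule that named them required. Lef1, a transcription factor of Wnt signalling and the only Wnt gene tested here, had 163 CPM in young and 130.4 in old, against 7.46 in control, 34.5 in high fat and 0 in low protein (3.48 ± 0.55, adjusted p = 0.00202). The diet pool held 31.1 CPM of Spock2, 11.0 CPM of Mfsd2a, 21.9 CPM of Slc39a8 and 29.2 CPM of Lef1, all nearer to the diet libraries, and the aging pool held between 5.27 CPM and 8.78 CPM of each. Rara, a retinoic acid receptor, had 253 CPM in young and 176 in old, against 22.4 in control, 91.9 in high fat and 14.0 in low protein (2.45 ± 0.47, adjusted p = 0.007), and the call was lost without control (adjusted p = 0.0935). Edn1, which encodes the vasoconstrictor endothelin, had 133 CPM in young and 139 in old, against 59.6 in control, 0 in high fat and 0 in low protein (2.41 ± 0.59, adjusted p = 0.0247), and the call was lost with DESeq2 (adjusted p = 0.198), without high fat (adjusted p = 0.137) and without low protein (adjusted p = 0.0973). The hemoglobin genes Hbb-bs and Hba-a1, which have near-identical copies that the counting may split, were higher, Hbb-bs with 2199 UMIs in young and 534 in old, against 0 in each diet library, which was at least 70.5-fold higher (adjusted p = 0.000346). The diet pool reached 3886 CPM of Hbb-bs and the aging pool 41.3 CPM.

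**Figure D4:**
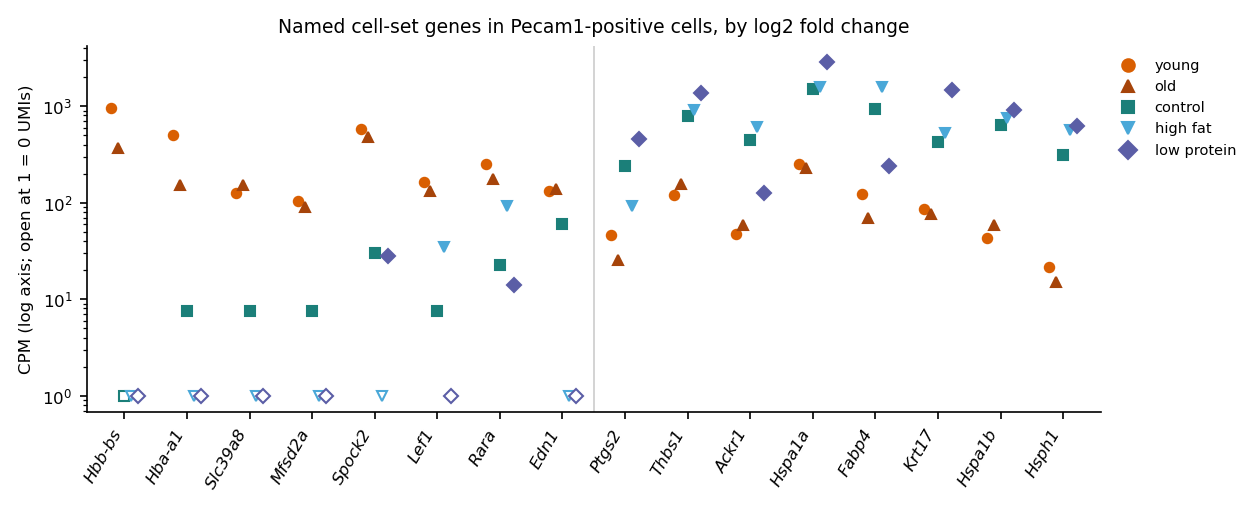
CPM (log axis, open symbols at 1 are 0 UMIs) of the named cell-set genes in Pecam1-positive cells, 1 symbol per mouse, from the largest rise to the largest fall. Young and old lie above the 3 diet libraries for the 8 genes on the left and below them for the 8 on the right. The rule that named these genes required this.

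Of the arterial genes the Notch ligand gene Dll4 was higher (1.67 ± 0.38, adjusted p = 0.0186) and the netrin receptor gene Unc5b lower (-1.57 ± 0.39, adjusted p = 0.0247), of 6 tested. Beside this and the lists below, 5.71% of all genes tested in the Pecam1 set were higher and 5.79% lower. For Dll4 the call was lost in cells with at least 3 marker UMIs (adjusted p = 0.0896), without control (adjusted p = 0.176) and without high fat (adjusted p = 0.109), and for Unc5b the call was lost in 4 of 12 alternatives, among them without young, old, high fat and low protein (adjusted p from 0.0633 to 0.117). Of the lymphatic genes Pdpn (-1.68 ± 0.39, adjusted p = 0.0185) and Fgl2 (-1.29 ± 0.27, adjusted p = 0.0122) were lower and the other 5 tested did not pass. For Pdpn the call was lost without young (adjusted p = 0.156), without old (adjusted p = 0.114) and without high fat (adjusted p = 0.124), and for Fgl2 the call was lost in 4 of 15 alternatives, among them without control and high fat (adjusted p from 0.0689 to 0.973). In the interferon list 3 of 10 were higher and none lower, namely Ifit1 (1.62 ± 0.35, adjusted p = 0.0131), Rtp4 (1.49 ± 0.33, adjusted p = 0.0142) and Irf1 (1.20 ± 0.25, adjusted p = 0.0104). For Ifit1 the call was lost without control (adjusted p = 0.152) and without high fat (adjusted p = 0.0997), for Rtp4 the call was lost in 4 of 14 alternatives, among them without control, high fat and low protein (adjusted p from 0.0524 to 0.105), and for Irf1 the call was lost without control (adjusted p = 0.0698) and without high fat (adjusted p = 0.0674). Inhbb, a subunit of activin, was lower (-2.68 ± 0.31, adjusted p = 0.000197). Thbs1, an inhibitor of vessel growth (-2.80 ± 0.31, adjusted p = 0.000166), and Ptgs2, the inducible cyclooxygenase (-2.72 ± 0.48, adjusted p = 0.00411), were lower as well. Krt17, a keratin of basal epithelium, was also lower, with 86.8 CPM in young and 75.5 in old, against 425 in control, 528 in high fat and 1469 in low protein (-3.22 ± 0.50, adjusted p = 0.0018). The library with the largest share of Epcam-positive cells in this set, low protein, had the highest Krt17. In exclusive cells Krt17 had 4.26 CPM in young and 6.09 in old, against 103 in control, 343 in high fat and 409 in low protein. It passed there (-5.66 on the log2 scale, adjusted p = 3.14e-05), with a lower level than in the whole set in every mouse. The part of epithelial cells in this difference was not tested.

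In Ptprc-positive cells, which held the fewest cells, 74 of 1368 genes tested (5.41%) were higher and 35 (2.56%) lower in young and old. These counts include genes of the secretion lists. With those genes left out, 65 of 1349 were higher and 22 lower. There were 65 calls without control and 189 without young. In exclusive cells 13 genes were higher and 21 lower, with 31 of the calls shared. None of the 7 macrophage, 5 T cell and 6 MHC class II genes tested passed. The macrophage list took, of all UMIs, 0.229% in young and 0.295% in old, against 0.260% in control, 0.241% in high fat and 0.394% in low protein. All 5 smooth muscle genes tested were higher. Acta2, the smooth muscle actin gene, had 1163 CPM in young and 922 in old, against 12.3 in control, 0 in high fat and 0 in low protein, and was 193-fold higher (95% counting interval 34.5 to 7637, adjusted p = 0.00024). Tagln was at least 23.4-fold higher (adjusted p = 0.00286). In the whole set the smooth muscle list took 0.301% in young and 0.268% in old, against 0.00493% in control, 0.0108% in high fat and 0.0117% in low protein, and in the cells outside the sets 0.320% in young and 0.245% in old, against 0.00349% in control, 0.00321% in high fat and 0.00275% in low protein. In young and old these shares were nearly equal. In the diet libraries, Svs UMIs of cells over the Svs limit lower the share outside the sets. In exclusive cells it took 0.165% and 0.0817% in young and old and at most 0.0103% in a diet library.

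Of 14 cytokine and chemokine genes tested in Ptprc-positive cells, 1 was higher, 1 lower and 12 did not pass. Over all genes tested in this set, 5.41% were higher and 2.56% lower. Ccl8, made by resident macrophages, had 386 CPM in young and 844 in old, against 61.6 in control, 77.4 in high fat and 117 in low protein (3.04 ± 0.50, adjusted p = 0.00955). Ccl9, a macrophage chemokine, had 55.5 CPM in young and 59.9 in old, against 321 in control, 449 in high fat and 204 in low protein (-2.45 ± 0.40, adjusted p = 0.00898). Neither overlapped between groups, which the rule that named them required. For Ccl8 the call was lost in exclusive cells (adjusted p = 0.0913) and without control (adjusted p = 0.054). Gzmb, the protease granzyme B of cytotoxic lymphocytes, had 963 CPM in young and 466 in old, against 209.6 in control, 263 in high fat and 175 in low protein (1.77 ± 0.37, adjusted p = 0.025). It was the only one of 4 cytotoxic genes tested that passed, and the call was lost in 4 of 14 alternatives, among them without control, high fat and low protein (adjusted p from 0.0613 to 0.112). In exclusive cells Gzmb had 1197 CPM in young and 998 in old, against 239 in control, 144 in high fat and 161 in low protein (log2 fold change 2.55, adjusted p = 0.00262). Gzmb stood at 489 CPM in the diet pool, within the range of young and old, and at 123 CPM in the aging pool, below every diet library. Ccl8 stood at 173 CPM in the diet pool, between the groups, and at 750.4 CPM in the aging pool, within the range of young and old. On Gzmb the aging pool lay below the diet pool, unlike young and old beside the diet libraries. On Ccl8 it lay above the diet pool, as young and old lay above the diet libraries.

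Igf1 was lower in the immune set too, with 25.0 CPM in young and 23.0 in old, against 160.2 in control, 217 in high fat and 292 in low protein (-3.01 ± 0.43, adjusted p = 0.00589). Wif1 had 3 UMIs in young and 0 in old, against 14 in control, 5 in high fat and 11 in low protein, 32.1-fold lower in young and old (95% counting interval 9.97 to 164, adjusted p = 0.0155). Both genes were lower in the collagen set as well. In exclusive Ptprc-positive cells Igf1 had 1 UMIs in young and 3 in old, against 2 in control, 4 in high fat and 1 in low protein, where the groups overlapped in CPM and the gene was too low to be tested. Wif1 had there 5 UMIs in high fat, 3 in low protein and 0 in the other 3 mice. The integrin gene Itga4 (-2.54 ± 0.56, adjusted p = 0.032) and the interferon-induced Ifi27l2a (-1.81 ± 0.39, adjusted p = 0.0284) were lower. For Itga4 the call was lost in 6 of 11 alternatives, among them without young, old, control, high fat and low protein (adjusted p from 0.0537 to 0.426). For Ifi27l2a the call was lost in exclusive cells (adjusted p = 0.121), without control (adjusted p = 0.0942) and without low protein (adjusted p = 0.0712). Aldh1a1, a retinaldehyde dehydrogenase, was 9.98-fold higher (95% counting interval 3.31 to 49.2, adjusted p = 0.0138). In the cells outside the sets Aldh1a1 stood at 476 and 518 CPM in young and old, above its 136 and 217 CPM in the Ptprc set. In exclusive cells it had 40.9 CPM in young and 11.3 in old, against 15.0 in control, 0 in high fat and 0 in low protein, so that old lay below control, and it was too low to be tested. For Aldh1a1 the call was lost with DESeq2 (adjusted p = 0.0544), without control (adjusted p = 0.0928) and without high fat (adjusted p = 0.0581). Of the 3 cell cycle genes tested only Cenpa was lower (-1.29 ± 0.32, adjusted p = 0.0489), and the call was lost in 12 of 13 alternatives, among them without young, old, control, high fat and low protein (adjusted p from 0.0545 to 0.393).

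Stress genes were called in all 3 sets. The heat shock genes Hsph1 and Hspa1b, which respond to unfolded protein, were lower in young and old, and Fosb, an immediate early gene of the Fos family, was higher. Hsph1, a co-chaperone of Hsp70, had 21.5 CPM in young and 15.1 in old, against 313 in control, 563 in high fat and 629 in low protein in Pecam1-positive cells (-4.64 ± 0.37, adjusted p = 1.13e-05). It was lower in Ptprc-positive (-3.54 ± 0.37, adjusted p = 0.00153) and in collagen-positive cells (-2.52 ± 0.24, adjusted p = 5.28e-05). The inducible Hsp70 gene Hspa1b had 43.4 CPM in young and 58.3 in old, against 634 in control, 747 in high fat and 909 in low protein in Pecam1-positive cells (-3.83 ± 0.31, adjusted p = 1.13e-05), and was lower in Ptprc-positive (-2.75 ± 0.37, adjusted p = 0.00476) and collagen-positive cells (-1.72 ± 0.21, adjusted p = 0.000276). Fosb had 3484 CPM in young and 2227 in old, against 571 in control, 761 in high fat and 516 in low protein in collagen-positive cells (2.19 ± 0.25, adjusted p = 0.000152), and was higher in Pecam1-positive (3.02 ± 0.33, adjusted p = 0.000125) and Ptprc-positive cells (2.64 ± 0.47, adjusted p = 0.013). The groups did not overlap on any of these 3 genes in any set. For Hsph1 and Hspa1b in the Pecam1 and Ptprc sets, non-overlap was part of the rule that named them. The share of all genes tested without overlap is not given here. Fos passed in the Pecam1 (1.34 ± 0.31, adjusted p = 0.0194) and collagen sets (1.48 ± 0.19, adjusted p = 0.00032) and not in the Ptprc set (adjusted p = 0.226). Of the 20 genes of the stress list, which does not hold Hsph1, 3 were higher and 3 lower in Pecam1-positive, 3 and 4 in Ptprc-positive and 6 and 4 in collagen-positive cells. Over all genes tested the shares, higher and lower, were 5.71% and 5.79%, 5.41% and 2.56%, and 15.2% and 12.1% in the same order. In cells of at least 1000 genes the calls of Hspa1b in the collagen set and of Fosb in the Ptprc set were lost (adjusted p = 0.0952 and 0.119). Genes of this list are known to respond to tissue dissociation, whose part here was not tested. Pools of both arms held Hspa1b at 826 CPM (diet) and 965 CPM (aging) in collagen-positive cells, above every single library. Fosb stood at 1336 CPM (diet pool) and 1409 CPM (aging pool) in Pecam1-positive cells. In Ptprc-positive cells it stood at 395 CPM (diet pool) and 441 CPM (aging pool). In both sets these levels lay between young and old and the diet libraries.

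The promoters of the heat shock genes that were lower in all 3 sets are shown because heat shock factor binds such genes through inverted repeats of GAA and TTC. They come from the RefSeq table for GRCm38.p6 (250 bases before to 50 after the start, minus strand for each gene), which matched Hspa1a, Hspa1b and Hsph1. Capitals mark each match of GAANNTTC or TTCNNGAA, both of which read the same on the 2 strands. Hspa1b (chr17:34959189-34959488) and Hsph1 (chr5:149636266-149636565) read as follows.
Hspa1b: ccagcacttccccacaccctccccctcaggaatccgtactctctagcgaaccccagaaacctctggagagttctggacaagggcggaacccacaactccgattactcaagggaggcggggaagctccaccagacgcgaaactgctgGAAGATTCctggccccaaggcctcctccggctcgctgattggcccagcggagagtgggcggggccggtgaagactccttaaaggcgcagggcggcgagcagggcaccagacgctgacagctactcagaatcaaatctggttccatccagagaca
Hsph1: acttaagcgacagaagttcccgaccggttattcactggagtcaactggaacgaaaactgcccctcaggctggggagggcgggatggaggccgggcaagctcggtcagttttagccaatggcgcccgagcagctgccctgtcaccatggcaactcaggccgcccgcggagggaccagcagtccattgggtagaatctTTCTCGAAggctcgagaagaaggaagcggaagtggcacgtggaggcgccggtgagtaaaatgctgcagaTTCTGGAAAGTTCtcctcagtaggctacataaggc
Hspa1b held 1 match and Hsph1 held 3, of which 2 overlap by their shared GAA. The Hspa1a window (chr17:34972107-34972406) shares 296 of 300 bases with that of Hspa1b and holds the same match. Reads of this near-identical pair may be split between them by the counting, so their separate values are uncertain. Of 32851 windows of the same length, 15.1% hold at least 1 match. A match is a description of these letters and not a tested binding site.

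**Figure D5:**
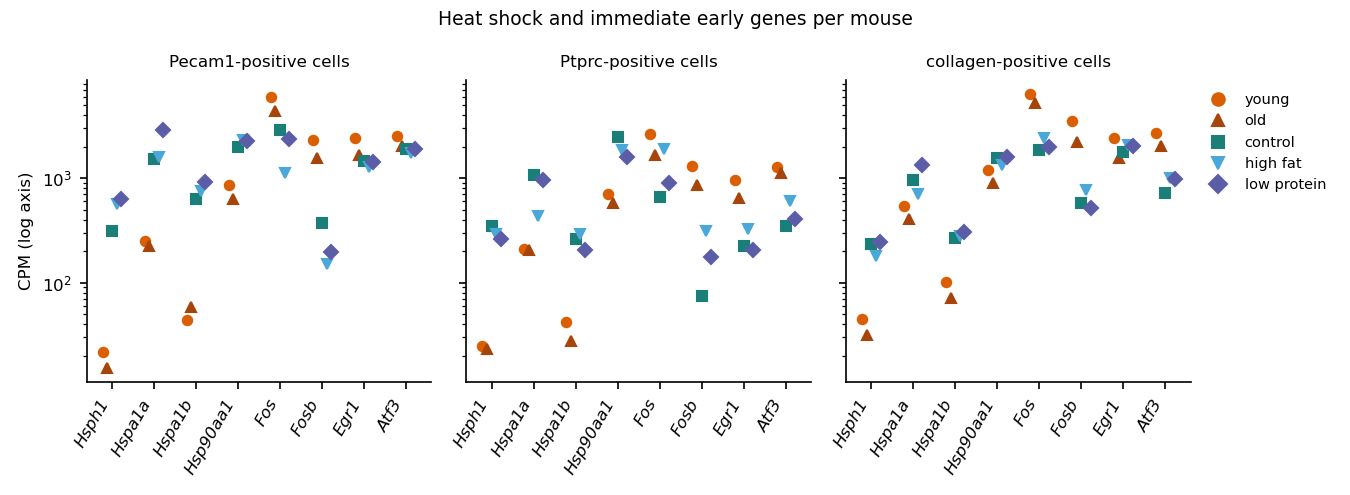
CPM (log axis) of 4 heat shock genes (left of each panel) and 4 immediate early genes (right) in the 3 cell sets, 1 symbol per mouse. Hsph1 and Hspa1b lie lower, and Fosb lies higher, in young and old than in each diet library in all 3 sets.

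Whether a gene's difference itself differed between cell sets was tested on cells positive for 1 marker set only, with the mouse as a block. Unlike exclusive cells, these include cells with Epcam UMIs. In the whole collagen set such cells made up 11.6% in young and 19.3% in old. In control, high fat and low protein they made up 3.21%, 3.34% and 6.59%. Their part in the differences below was not tested. Of 4946 genes, 236 (4.77%) had a higher and 174 (3.52%) a lower group effect in collagen-positive than in Pecam1-positive cells. Without control the sum was 146 and without high fat 267. Hox genes among them were Hoxd8, Hoxd9, Hoxb8 and Hoxb9. In cells positive for Pecam1 alone Hoxd9 had 25.4 CPM in young and 23.1 in old, against 58.3 in control, 72.5 in high fat and 46.9 in low protein, while in cells positive for collagen alone it had 35.3 CPM in young and 29.8 in old, against 1.61 in control, 4.69 in high fat and 5.70 in low protein (difference of the log2 fold changes 4.47 ± 0.78 (SE), adjusted p = 0.00143). The diet values rest on 7, 6 and 3 UMIs in the Pecam1-positive and 1, 2 and 1 in the collagen-positive cells. Hoxb9 had 78.0 CPM in young and 75.4 in old, against 99.9 in control, 84.6 in high fat and 109 in low protein in Pecam1-positive cells, where the groups differed little (difference of the log2 fold changes 2.07 ± 0.59 (SE), adjusted p = 0.0378), and the call was lost in 4 of 8 alternatives, among them without young, old, control and high fat (adjusted p from 0.0657 to 0.343). Hoxd8 (difference of the log2 fold changes 5.18 ± 1.24 (SE), adjusted p = 0.012) and Hoxb8 (difference of the log2 fold changes 2.83 ± 0.74 (SE), adjusted p = 0.0239) were called in the same direction. In control, high fat and low protein Hoxd8 had 8, 1 and 2 UMIs in Pecam1-positive and 0, 1 and 0 in collagen-positive cells. Hoxb8 had 8, 3 and 1 UMIs in Pecam1-positive and 4, 1 and 2 in collagen-positive cells. For Hoxd8 the call was lost without control (adjusted p = 0.493), and for Hoxb8 the call was lost without control (adjusted p = 0.416) and without high fat (adjusted p = 0.0943). In exclusive collagen-positive cells, which hold no Epcam UMI, the groups did not separate for Hoxb8, as given above. Between Ptprc- and Pecam1-positive cells 8 genes (0.162%) had a higher and 1 (0.0202%) a lower effect, 9 and 3 without TMM scaling. Between collagen- and Ptprc-positive cells 18 (0.364%) had a higher and 83 (1.68%) a lower effect, 41 and 63 without TMM scaling. No Hox gene was called in either pair.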

How the data were processed

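The deposited values were UMI counts per gene and cell, which the authors made with Cell Ranger (version 3.1.0 for the 5 single-mouse libraries and 6.0.1 for the pools, per the file headers) on the mm10 build. Seurat is named in the submitters' processing notes. Each library was 1 mouse, so p-values measure the spread between mice of a group. Mice of a group differed in age or diet, so this spread includes age or diet. Members, gene lists (36 lists, 510 genes) and tests were chosen with earlier results of these data known.

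Counts of each cell set were summed per mouse and tested by edgeR 4.0.16 (R 4.3.3) with filterByExpr, TMM and the quasi-likelihood test, young and old against control, high fat and low protein, and the p-values of every gene tested in a set were adjusted together after Benjamini and Hochberg. The difference between cell sets was an interaction term with mouse as a block. Standard errors were the absolute log2 fold change divided by the square root of F. Shares of UMIs were summed per mouse and are given without a test, since an exact permutation test of 2 against 3 mice cannot go below 0.1 (Python 3.11.15, pandas 2.3.3, NumPy 2.4.6, SciPy 1.17.1, matplotlib 3.10.9). Folds from 0 UMIs used a floor of 3 counts over the group, and counting intervals were exact at 95%. Both cover counting error only.

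Named genes were every Hox gene that passed, the 2 to 4 largest changes of a list, and in each direction the 8 largest changes among genes without overlap of the groups, with a mean of at least 20 CPM in the higher group and at least 2 times the level of the mouse's other cells there. Those other cells include cells over the Svs limit, whose Svs UMIs lower the CPM of other genes in the diet libraries. Of the interaction, the 3 largest differences of each pair of sets were named. Fos in Pecam1-positive cells, Hsph1 in collagen-positive cells, the hemoglobin genes and genes given at values that did not pass were added after their values had been seen. Hoxd4 and Ccl21a each had 2 entries in the gene reference.

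Alternatives were DESeq2 1.42.0, no TMM, no filter, at least 3 marker UMIs, exclusive cells, no mitochondrial limit, no or a 10% Svs limit, at least 1000 genes, no secretion genes, and each library left out, where the spread was pooled and a lone mouse was assumed to vary like the other group. On simulated counts, 200 genes were changed by 1 on the log2 scale, and of those tested the share recovered was 33.3% in Pecam1-positive (2414 genes), 23.7% in Ptprc-positive (1259 genes) and 40.6% in collagen-positive cells (7112 genes). At a change of 2 the shares were 99.5% (2377 genes), 98.3% (1204 genes) and 97.9% (7096 genes). The interaction of collagen minus Pecam1 recovered 23% at 2 (3325 genes) and 90% at 4 (3323 genes). The simulated counts had the same dispersion for every gene. For the interaction the dispersion was a set value, with no shared mouse effect. Recovery in the real counts, where spread differs between genes, may therefore be lower. Pooled mice entered no test. Doublets were not removed. A gene that the rule named is not reported here.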

Additional observations from a re-analysis of the deposited data

Results flagged for a closer look

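Group effects that differed between cell sets by the test of the difference itself are given here, beyond the Hox genes described above. All were measured in cells positive for 1 marker set only, with cells that held Epcam UMIs kept. A fitted difference of a gene at 0 UMIs in a group depends on the prior count and is no bound, so the UMIs are given beside it. Hoxd8 (5.18), Hoxd9 (4.47), Hoxb8 (2.83) and Hoxb9 (2.07) had a higher group effect (difference of the log2 fold changes in brackets) in collagen-positive than in Pecam1-positive cells.

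Between Ptprc- and Pecam1-positive cells, 8 genes (0.162%) of 4946 had a higher and 1 (0.0202%) a lower effect. Defb1, a beta-defensin gene, had 34 UMIs in young and 17 in old, against 0 in each diet library, in Ptprc-positive cells, and 108 UMIs in young and 72 in old, against 10 in control, 5 in high fat and 7 in low protein, in Pecam1-positive cells (difference of the log2 fold changes 10.60 ± 1.85 (SE), adjusted p = 0.0207). Cald1, the actin-binding caldesmon, had 30 UMIs in young and 9 in old, against 1 in control, 0 in high fat and 0 in low protein, in Ptprc-positive cells, and 197 CPM in young and 195 in old, against 458 in control, 423 in high fat and 469 in low protein, in Pecam1-positive cells (difference of the log2 fold changes 4.93 ± 0.78 (SE), adjusted p = 0.0111). Fam107b had 235 CPM in young and 134 in old, against 82.2 in control, 54.5 in high fat and 174 in low protein, in Ptprc-positive cells, and 23.0 CPM in young and 15.4 in old, against 58.3 in control, 60.4 in high fat and 156 in low protein, in Pecam1-positive cells (difference of the log2 fold changes 3.19 ± 0.54 (SE), adjusted p = 0.0129). For Defb1 the call was lost without control (adjusted p = 0.185), without high fat (adjusted p = 0.0602) and without low protein (adjusted p = 0.0648). For Cald1 the call was lost without control (adjusted p = 0.0798) and without high fat (adjusted p = 0.0602). For Fam107b the call was lost without control (adjusted p = 0.115), without high fat (adjusted p = 0.0602) and without low protein (adjusted p = 0.0888).

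Between collagen- and Pecam1-positive cells, 273 genes were higher and 134 lower without TMM. Slc39a8 had 265 UMIs in young and 202 in old, against 0 in each diet library, in Pecam1-positive cells, and 25 UMIs in young and 61 in old, against 11 in control, 0 in high fat and 2 in low protein, in collagen-positive cells (difference of the log2 fold changes -10.83 ± 2.16 (SE), adjusted p = 0.0039). Masp1, a protease of the lectin complement pathway, had 10 UMIs in young and 3 in old, against 0 in each diet library, in Pecam1-positive cells, and 13 UMIs in young and 2 in old, against 54 in control, 41 in high fat and 8 in low protein, in collagen-positive cells (difference of the log2 fold changes -10.63 ± 2.37 (SE), adjusted p = 0.0116). In Pecam1-positive cells that was 4.70 CPM in young and 2.31 in old. The 0 UMIs of the diet libraries allow up to 10.2 CPM in the whole Pecam1 set, so no group difference can be read there. Cldn11 had 280 UMIs in young and 586 in old, against 0 in each diet library, in collagen-positive cells, and 4 UMIs in young and 3 in old, against 0 in control, 0 in high fat and 2 in low protein, in Pecam1-positive cells (difference of the log2 fold changes 10.35 ± 2.83 (SE), adjusted p = 0.0342). For Slc39a8 the call was lost without control (adjusted p = 0.258). For Masp1 the call was lost without control (adjusted p = 0.109) and without high fat (adjusted p = 0.0526). For Cldn11 the call was lost without control (adjusted p = 0.0758) and without low protein (adjusted p = 1).

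Between collagen- and Ptprc-positive cells, 18 genes (0.364%) had a higher and 83 (1.68%) a lower effect. Gpm6b, a membrane glycoprotein of neural cells, had 5 UMIs in young and 7 in old, against 0 in each diet library, in Ptprc-positive cells, and 33.8 CPM in young and 18.1 in old, against 125 in control, 155 in high fat and 119.7 in low protein, in collagen-positive cells (difference of the log2 fold changes -10.36 ± 2.41 (SE), adjusted p = 0.0318). Rgmb, a BMP co-receptor, had 11 UMIs in young and 3 in old, against 0 in each diet library, in Ptprc-positive cells, and 29.2 CPM in young and 34.4 in old, against 94.8 in control, 84.5 in high fat and 74.1 in low protein, in collagen-positive cells (difference of the log2 fold changes -9.70 ± 2.28 (SE), adjusted p = 0.0337). Prrg3 had 15 UMIs in young and 15 in old, against 0 in each diet library, in Ptprc-positive cells, and 65.0 CPM in young and 105 in old, against 93.2 in control, 65.7 in high fat and 125 in low protein, in collagen-positive cells (difference of the log2 fold changes -9.55 ± 2.03 (SE), adjusted p = 0.0182). All 3 rest on at most 15 UMIs a mouse in the Ptprc set. There the 0 UMIs of the diet libraries allow up to 16.7 CPM in the whole set. Gpm6b in young (18.1 CPM) and Rgmb in old (18.2 CPM) lay close to that limit. For Gpm6b the call was lost without old (adjusted p = 0.0811), without control (adjusted p = 0.181) and without high fat (adjusted p = 0.127). For Rgmb the call was lost in 4 of 8 alternatives, among them without young, control and high fat (adjusted p from 0.0982 to 0.212). For Prrg3 the call was lost with cells of several sets kept (adjusted p = 0.0564), without control (adjusted p = 0.157) and without high fat (adjusted p = 0.0507).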

How the results depend on the processing

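The number of genes called moved with the filters, which also changed how many genes could be tested. In Pecam1-positive cells 304 calls became 627 with no filter on low counts, 154 with at least 3 marker UMIs, 469 with no Svs limit and 143 in cells of at least 1000 genes, and 159 to 288 with 1 library left out. The 109 calls of Ptprc-positive cells became 277, 10, 174 and 52 in the same order, 34 in exclusive cells and 65 to 189 with 1 library left out. In collagen-positive cells 2063 became 935 with at least 3 marker UMIs, 210 in cells of at least 1000 genes and 1029 to 2425 with 1 library left out. Over cells with at least 3 marker UMIs 1090, 172 and 4341 genes were tested in the 3 sets, over cells of at least 1000 genes 1134, 337 and 1558, and without the filter 16503, 14093 and 19429. With at least 3 marker UMIs the Ptprc set held 26 cells in young, 7 in old, 7 in control and 2 in high fat. It held 0 in low protein, which was left out of that fit. The share of higher among all calls without the filter was 71.3% in the Pecam1 set and 83.0% in the Ptprc set.

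Differences between cell sets depended on single libraries. With 1 library left out, the Ptprc minus Pecam1 count (9) ran from 0 without control to 52 without young, with 1 without high fat and 24 without old, collagen minus Pecam1 (410) from 146 without control to 394, and collagen minus Ptprc (101) from 41 without control and 45 without high fat to 134. Beside the 0 by edgeR, 456 genes had an unadjusted p under 0.05, and DESeq2 was not run on these differences. With cells of several sets kept the first was 14.

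Of the alternative values of named genes 559 of 649 kept direction and side of the threshold in the Pecam1 set, 248 of 308 in the Ptprc set and 1308 of 1396 in the collagen set, where 6 reversed. Fbln5 turned to 0.15 with at least 3 marker UMIs, 0.80 in cells of at least 1000 genes and 0.44 without smooth muscle UMIs, Krt8 to -0.00679 and Cldn3 to -0.75 with no Svs limit, and Rgs5 to -1.23 in cells of at least 1000 genes, all on the log2 scale in collagen-positive cells. The cause was not tested. The secretion shares kept their direction in the 3 alternatives run on them (no Svs limit, an Svs share under 10% and exclusive cells). No paired analysis was possible because the labels give the mice compared no shared replicate numbers.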
